A study of Mus musculus with 20 samples.

Results

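Profiles from chromatin immunoprecipitation with sequencing (ChIP-seq) were followed in mouse CD4+ T cells, each for 1 transcription factor in cells that lack the other. They are of Bcl11b in cells without Foxp3, and of Foxp3 in regulatory T (Treg) cells without Bcl11b. The members are 14099 of the 22081 genomic regions in the deposited lists (63.9%). A region was a member if it stood in the list of Bcl11b regions common to WT Treg and Foxp3-deficient cells or specific to the latter (2194 regions, of which 2127 common and 67 specific), or in the corresponding lists of Foxp3 regions in Bcl11b-deficient Treg cells (12858 regions, of which 10550 common and 2308 specific). A region is called kept below where it stood in a common list, lost where it stood in the WT-specific list, and new where it stood in the list specific to the deficient cells. The lists hold positions only, so kept and lost describe list membership and not an amount of binding.

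The series has 20 libraries in 9 groups, 12 immunoprecipitated and 8 input. All cells came from C57BL/6 mice, were sorted from spleen and draining lymph nodes, and were fixed before immunoprecipitation; ages were not used here. WT Treg cells were CD4+YFP+ cells of Foxp3-IRES-YFP-Cre mice. Bcl11b-KO Treg cells were CD4+YFP+ cells of Bcl11b f/f Foxp3-IRES-YFP-Cre mice, so that the Cre that deletes Bcl11b is made from the Foxp3 locus and the WT control carries it too. The Foxp3-deficient cells, labelled KIKO, were CD4+GFP+ cells of Foxp3-GFPKO mice, in which a GFP reporter marks cells that activated a Foxp3 allele giving no Foxp3; the labels give these cells no Cre allele, so the KIKO and WT cells differ in reporter as well as in Foxp3. KIKO Bcl11b and Bcl11b-KO Foxp3 have 2 libraries each, and each list was made for a group, so no spread between replicates can be given. The lists hold no expression and no reads, so neither the cell type nor the loss of Foxp3 or Bcl11b could be checked in them.

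Foxp3 is the forkhead transcription factor that defines Treg cells and is needed for their suppressive function. Bcl11b is a zinc finger factor that is needed for T cell commitment and is expressed in all T cells, Treg cells included. Both are known to recruit corepressors and both occur at promoters and enhancers together with factors of the Ets and Runx families, which themselves bind DNA in T cells.

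Promoters of 8 genes are printed as examples of the classes of region on which the results turn. Not all were picked by the rule for named genes given below, and they do not show how often a sequence occurs in a class. Each is the RefSeq GRCm38.p6 window from 250 bases before to 50 after the start of transcription, printed 5′ to 3′ on the strand of the gene. Capitals mark the Ets-type sequence CCGGAAG and the Runx-type sequence TGTGGTT, on either strand. The first 3 lie under a region held by both factors, each in the absence of the other: Nfkbie (chr17:45555450-45555749, plus strand), an inhibitor of NF-kB; Mrps33 (chr6:39810887-39811186, minus strand), a mitochondrial ribosomal protein; and Runx3 (chr4:135120395-135120694, plus strand), a Runx factor of T cells.
Nfkbie: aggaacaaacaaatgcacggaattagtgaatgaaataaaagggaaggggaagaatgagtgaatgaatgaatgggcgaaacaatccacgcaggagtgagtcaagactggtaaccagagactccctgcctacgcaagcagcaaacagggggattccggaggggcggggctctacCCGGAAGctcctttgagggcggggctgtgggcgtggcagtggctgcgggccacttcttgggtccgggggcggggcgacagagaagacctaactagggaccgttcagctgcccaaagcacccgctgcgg
Mrps33: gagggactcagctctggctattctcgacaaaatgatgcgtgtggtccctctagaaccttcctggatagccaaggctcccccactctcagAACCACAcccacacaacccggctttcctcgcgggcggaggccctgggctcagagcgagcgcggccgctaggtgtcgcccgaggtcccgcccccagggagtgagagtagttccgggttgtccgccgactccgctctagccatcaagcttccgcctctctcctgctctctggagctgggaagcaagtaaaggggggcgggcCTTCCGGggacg
Runx3: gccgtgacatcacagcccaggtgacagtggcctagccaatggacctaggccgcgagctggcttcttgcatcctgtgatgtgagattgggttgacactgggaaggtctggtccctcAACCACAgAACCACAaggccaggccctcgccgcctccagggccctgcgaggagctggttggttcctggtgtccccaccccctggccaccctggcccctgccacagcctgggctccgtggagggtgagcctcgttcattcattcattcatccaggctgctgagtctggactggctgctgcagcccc

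The next pair lies under a KIKO Bcl11b region that is not in the Bcl11b-KO Foxp3 set: Gabpa (chr16:84834874-84835173, plus strand), an Ets factor, and Bcl10 (chr3:145924012-145924311, plus strand), an adaptor between antigen receptors and NF-kB.
Gabpa: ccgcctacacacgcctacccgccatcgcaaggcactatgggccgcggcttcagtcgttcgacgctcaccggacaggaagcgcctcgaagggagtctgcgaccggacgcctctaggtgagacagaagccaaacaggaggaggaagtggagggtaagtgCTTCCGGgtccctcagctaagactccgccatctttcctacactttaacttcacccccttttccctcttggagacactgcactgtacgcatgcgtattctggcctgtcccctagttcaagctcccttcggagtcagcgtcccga
Bcl10: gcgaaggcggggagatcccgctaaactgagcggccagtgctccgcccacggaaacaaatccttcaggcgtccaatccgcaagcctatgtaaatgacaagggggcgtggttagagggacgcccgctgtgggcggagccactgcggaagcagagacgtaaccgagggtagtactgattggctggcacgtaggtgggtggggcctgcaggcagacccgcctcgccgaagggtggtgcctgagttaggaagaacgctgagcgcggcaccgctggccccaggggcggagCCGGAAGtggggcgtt

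The last 3 lie under a Bcl11b-KO Foxp3 region that is not in the KIKO Bcl11b set: Batf (chr12:85686470-85686769, plus strand), an AP-1 family factor; Tigit (chr16:43664135-43664434, minus strand), an inhibitory receptor of Treg cells; and Il2ra (chr2:11642542-11642841, plus strand), the alpha chain of the IL-2 receptor.
Batf: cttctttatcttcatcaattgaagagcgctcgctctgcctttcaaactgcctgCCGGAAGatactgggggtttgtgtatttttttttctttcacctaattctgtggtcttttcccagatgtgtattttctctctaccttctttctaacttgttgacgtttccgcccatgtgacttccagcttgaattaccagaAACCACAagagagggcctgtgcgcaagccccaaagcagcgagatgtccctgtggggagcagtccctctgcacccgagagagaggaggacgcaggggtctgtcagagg
Tigit: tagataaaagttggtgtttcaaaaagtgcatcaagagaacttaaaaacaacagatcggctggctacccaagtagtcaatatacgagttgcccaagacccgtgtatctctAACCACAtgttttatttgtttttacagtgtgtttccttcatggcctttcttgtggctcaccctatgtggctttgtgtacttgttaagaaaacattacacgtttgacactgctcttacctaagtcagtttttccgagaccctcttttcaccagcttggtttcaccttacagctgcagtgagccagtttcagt
Il2ra: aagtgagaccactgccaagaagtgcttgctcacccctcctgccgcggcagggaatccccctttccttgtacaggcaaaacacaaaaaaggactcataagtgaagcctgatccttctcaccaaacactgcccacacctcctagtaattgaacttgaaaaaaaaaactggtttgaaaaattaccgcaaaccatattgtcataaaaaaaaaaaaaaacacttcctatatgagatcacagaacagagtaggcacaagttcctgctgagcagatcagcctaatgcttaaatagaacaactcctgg

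In the Nfkbie window the Ets-type sequence begins 78 bases before the start and in the Gabpa window 93 bases before it, in both cases inside the listed region. In the Mrps33 window the Ets-type sequence lies 38 bases after the start and a Runx-type sequence 161 bases before it. The Runx3 window holds 2 Runx-type sequences, 135 and 127 bases before the start, both outside the listed region (chr4:135120220-135120510). The Bcl10 window is shared by a pair of regions. A region whose Foxp3 was lost without Bcl11b covers its upstream part (chr3:145923799-145924113), and the kept Bcl11b region (chr3:145924121-145924497) covers the start and the Ets-type sequence 34 bases after it. The Il2ra window holds neither sequence, nor the forkhead-type sequence TGTTTAC, which says only that these letters are not in this window.

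Sites held by Bcl11b without Foxp3 and sites held by Foxp3 without Bcl11b met in 953 regions. These were 43.4% of the KIKO Bcl11b set (Wilson 95% interval 41.4 to 45.5) and 7.41% of the Bcl11b-KO Foxp3 set (6.97 to 7.88). The remaining 1241 Bcl11b regions and 11905 Foxp3 regions each belonged to 1 factor only. In WT cells, by comparison, the Bcl11b and Foxp3 sides of the same lists shared 2340 regions, which were 41.4% of 5646 Bcl11b regions (40.2 to 42.7) and 15.2% of 15365 Foxp3 regions (14.7 to 15.8). These shares rest on identical positions in lists of separate comparisons and are not the whole WT overlap. The direct comparison of WT Bcl11b with WT Foxp3 lists 4738 distinct regions as common, 2497 as Bcl11b-specific and 9512 as Foxp3-specific. The Bcl11b-side shares are close over all widths but not among regions wider than 276 bp, a subset added for the WT cells after the data were seen. There 72.1% (69.5 to 74.6) of 1170 KIKO Bcl11b regions and 16.8% (15.8 to 17.9) of 5023 Bcl11b-KO Foxp3 regions were shared, against 89.4% (88.1 to 90.6) of 2195 WT Bcl11b and 33.9% (32.7 to 35.2) of 5784 WT Foxp3 regions. Width itself went with sharing: 88.6% of the 953 shared, 26.3% of the Bcl11b-only and 35.1% of the Foxp3-only regions were wider than 276 bp. A cut by width therefore selects in part by sharing. The lists also share regions by construction, since each common list belongs to the WT cells and to the deficient cells. The contrast between KIKO or Bcl11b-KO and WT shares was not tested.

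**Figure D1:**
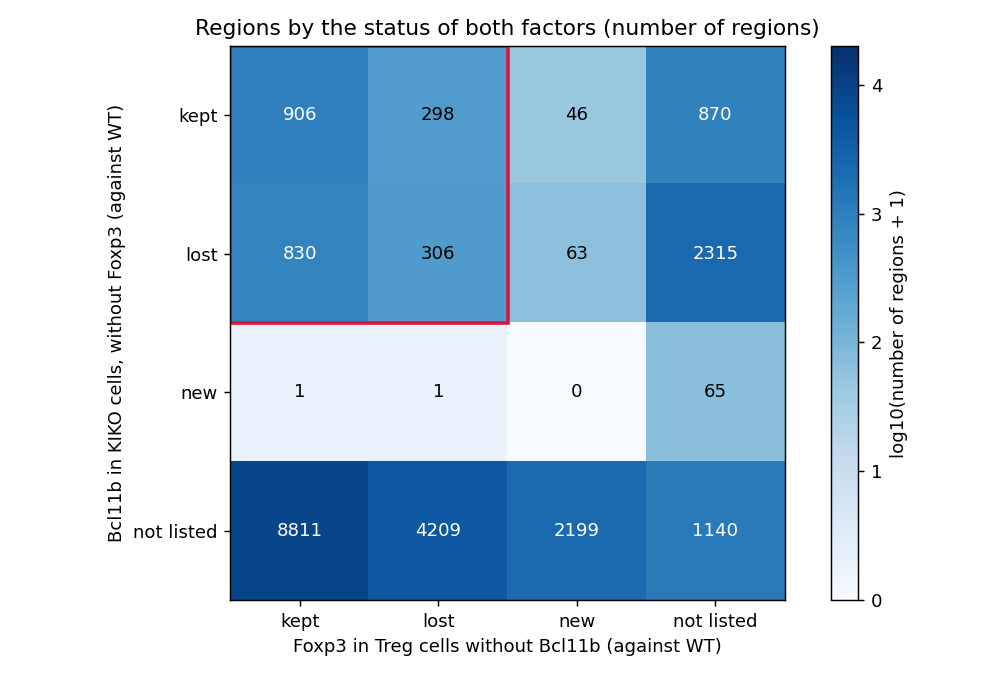
Number of regions for each pairing of Bcl11b status in the WT against KIKO comparison with Foxp3 status in the WT against Bcl11b-KO comparison; each cell is a count of regions, and the red box encloses regions on the WT side of both comparisons. The box holds 906 regions where both were kept, 298 where only Bcl11b was, 830 where only Foxp3 was and 306 where both were lost.

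Nearly all of the shared regions came from the common lists. The class held 906 regions in which both factors were kept, 46 in which Bcl11b was kept and Foxp3 was new, and 1 from the 67 regions specific to KIKO cells. That region (chr9:14784711-14785113) lies in Mre11a, which encodes a DNA double-strand break repair nuclease, and covers the promoter window of Ankrd49. The KIKO-specific list met the Bcl11b-KO Foxp3 set in 1.49% of its regions (0.264 to 7.98), whereas the kept Bcl11b regions did so in 44.8% (42.7 to 46.9) and the lost ones in 25.4% (24 to 26.8 for 893 of 3519). Of the new Foxp3 regions, 1.99% were in the KIKO Bcl11b set (1.5 to 2.65).

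At sites where WT lists hold both factors, the fate of one without the other was compared with the fate of the other. Over all WT regions of each factor, 37.7% of Bcl11b regions were kept without Foxp3 and 68.7% of Foxp3 regions were kept without Bcl11b. Among the 2340 regions with both, Foxp3 was kept in 75.2% (72.7 to 77.6) of the 1204 regions where Bcl11b was kept and in 73.1% (70.4 to 75.6) of the 1136 regions where Bcl11b was lost. The odds ratio was 1.12 with an exact 95% interval of 0.927 to 1.35 (Fisher's exact test, two-sided, p = 0.24, Benjamini-Hochberg adjusted p = 0.24 over 4 tests). An association was not detected, and the interval gives the range of odds ratios that remain possible. Regions, not animals, are the units of this and the following tests, so the p-values do not measure variation between mice.

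The same comparison was made in subsets of these regions. The odds ratio was 1.07 within 1 kb of a gene end, 1.34 (0.96 to 1.88, Fisher's exact p = 0.076) beyond 1 kb, 1.04 among regions wider than 276 bp, 1.13 on the autosomes, and 1.1 among regions that the direct comparison of WT Bcl11b with WT Foxp3 lists as common. None of these 5 subsets passed the threshold of 0.05. Bcl11b was kept in 52.2% (49.8 to 54.5) of regions where Foxp3 was kept and 49.3% (45.4 to 53.3) of regions where Foxp3 was lost, but in 27.3% (25.8 to 28.9) of the 3185 regions where the Bcl11b-KO comparison lists no Foxp3. That difference was not tested; the kept regions without listed Foxp3 had a median width of 198 bp and those with kept Foxp3 of 344 bp. Foxp3 was kept in 67.7% (66.9 to 68.5) of the 13020 regions where the KIKO comparison lists no Bcl11b.

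**Figure D2:**
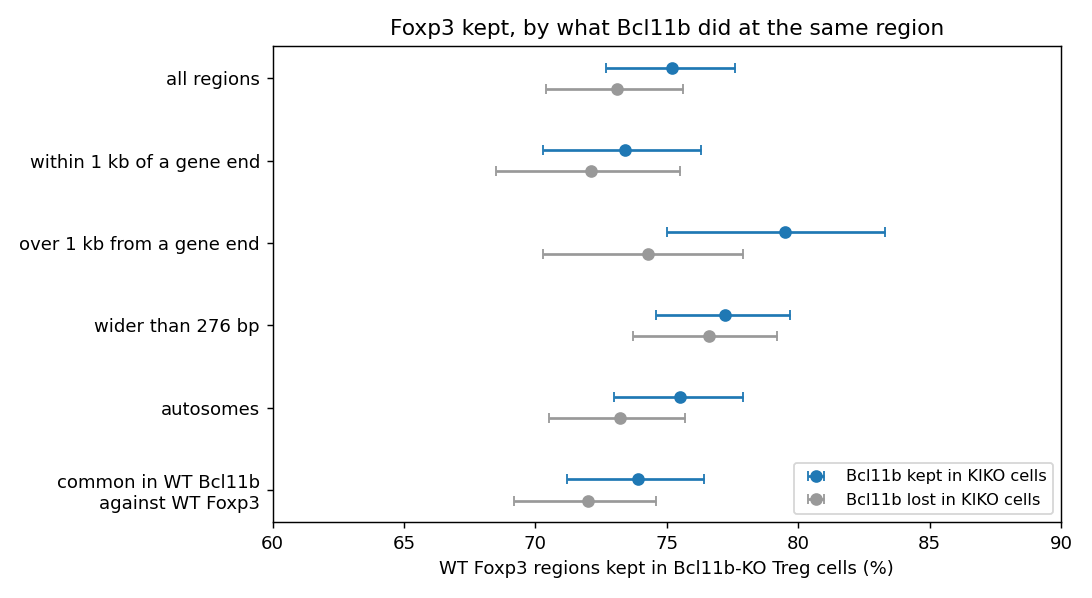
Percent of regions with Foxp3 kept, with Wilson 95% intervals, where Bcl11b was kept or lost, for all regions with both factors in WT lists and for subsets of them. In all 5 subsets the point for kept Bcl11b is the higher one, by the most beyond 1 kb from a gene end (79.5% against 74.3%), and the intervals overlap.

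Genes of 14 lists, from T cell genes to housekeeping genes and markers of other cells, were the nearest gene for 80 of the 2340 regions. Of these, 28 (35%, against 38.7% of all 2340) kept both factors, 35 (43.8%, against 35.5%) kept Foxp3 only, 4 (5%, against 12.7%) kept Bcl11b only and 13 (16.2%, against 13.1%) lost both. The 28 regions with both kept lay at 28 genes. They included Zap70, Lcp2, Plcg1 and Vav1, which carry the signal of the T cell receptor; Stat5a and Il2rb of the IL-2 pathway; Runx1, Fli1, Ets2 and Elk4 among the Runx and Ets factors; and Itga4, Itgae and Itgal, integrin chains that direct homing. The Itgae region (chr11:73138234-73138509) also covers the promoter window of Haspin. The 35 regions with Foxp3 kept and Bcl11b lost lay at 31 genes. Foxp3 itself, Ctla4, Il2ra with 2 regions, Tigit, Batf, Lck, Lat, Cd3d, Cd3g, Ccr7, Cish with 2 regions and Tcf7 with 2 regions stood there. The opposite outcome, Bcl11b kept and Foxp3 lost, was found near Bcl2l1, a survival factor, Nr4a1, an immediate early gene of antigen receptor signalling, Polr2a, the large subunit of RNA polymerase II, and Selplg, a selectin ligand. Bcl11b was also kept and Foxp3 lost at the region over the Gabpa promoter window. That region lies nearer to another gene and is not counted among the 80. Both factors were lost at regions of Ets1, Klf2, Bach2, Lag3, Cd247 and Stat5b, among others. Some genes had regions of more than 1 outcome, such as Bcl11b, Ccnd2, Ccr9 and Thy1, and Nr4a1 and Cxcr5 had regions of 3 outcomes. The lists were not tested.

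Where the shared regions lie in the genome was compared by their distance to gene ends, meaning either end of a protein-coding gene in RefSeq. Of the 953 regions held by both, 632 (66.3%, 63.3 to 69.2) lay within 1 kb of a gene end, as did 447 of 1241 (36%, 33.4 to 38.7) of the Bcl11b-only regions and 4743 of 11905 (39.8%, 39 to 40.7) of the Foxp3-only regions. All regions of the lists together gave 37.9%. The odds were 3.5 times higher for shared than for Bcl11b-only regions (2.92 to 4.19, Fisher's exact test, adjusted p = 3.4e-45) and 2.97 times higher than for Foxp3-only regions (2.58 to 3.43, adjusted p = 6.8e-56). Bcl11b-only regions were slightly less often near a gene end than Foxp3-only regions (odds ratio 0.85, 0.751 to 0.961, Fisher's exact test, adjusted p = 0.012).

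The width of the region moved with this result and reversed 2 of its 3 comparisons. In each list that is specific to a profile 1 width was the commonest: 198 bp for WT Treg Bcl11b, 226 bp for Tn Bcl11b, 252 bp for KIKO Bcl11b, 220 bp for WT Treg Foxp3 and 276 bp for Bcl11b-KO Foxp3. Of the KIKO Bcl11b set 12.1% and of the Bcl11b-KO Foxp3 set 40.1% had exactly their own commonest width. Tn is the label of another cell population of the series, also sufficient for Bcl11b. Of the Bcl11b-only regions 538 (43.4%) were exactly 198 bp wide and 255 (20.5%) exactly 252 bp, and 580 were too narrow to hold a whole KIKO region of 252 bp. Shared regions were wider than 276 bp in 844 of 953 cases (88.6%). Bcl11b-only regions were so in 326 of 1241 cases (26.3%), and in 237 of these 326 Bcl11b was kept and Foxp3 lost. The wide Bcl11b-only regions therefore differ from the narrow ones in WT Foxp3 listing too, and width and this listing were not separated. Within the widest class, the share near a gene end was 67.8% (64.5 to 70.8) for shared, 73.6% (68.6 to 78.1) for Bcl11b-only and 48.8% (47.3 to 50.3) for Foxp3-only regions. There the odds ratio of shared against Bcl11b-only regions was 0.754 (Fisher's exact p = 0.056) and that of Bcl11b-only against Foxp3-only regions 2.93 (p = 1.7e-18). Only the higher share in shared than in Foxp3-only regions held its direction in wide regions (odds ratio 2.21, Fisher's exact p = 3.2e-24).

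**Figure D3:**
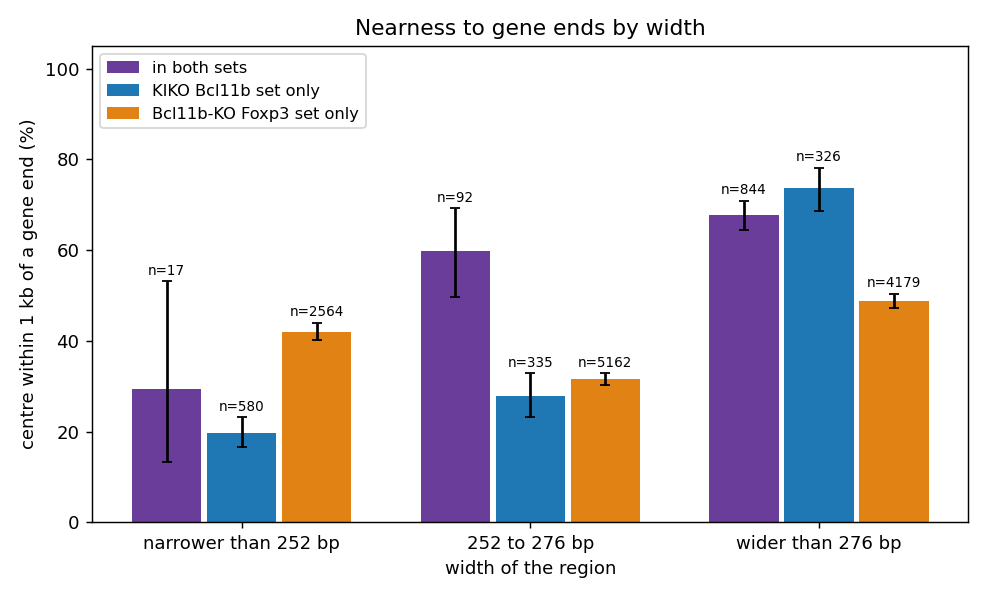
Percent of regions that lie near a gene end (1 kb or less), with Wilson 95% intervals, for each class of region and each width class. Bcl11b-only regions go from 19.7% in the narrowest class to 73.6% in the widest, while Foxp3-only regions stay between 31.5% and 48.8%.

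Among sites of both factors in WT cells, chosen after the values were seen and not tested, 69.7% (67 to 72.2) of the regions with kept Bcl11b lay near a gene end and 55.5% (52.6 to 58.4) of those with lost Bcl11b. In regions wider than 276 bp the values were 71.1% and 55.2%. For Foxp3 the order was the other way, with 61.7% (59.4 to 64) where it was kept and 66.1% (62.2 to 69.7) where it was lost, and these intervals overlap. The Bcl11b-only regions were of unlike kinds. Those with Bcl11b kept and Foxp3 lost were near a gene end in 74.8% of 298 cases and had a median width of 315 bp. Regions whose Bcl11b was kept but which the Bcl11b-KO lists do not name were near a gene end in 24.4% of 870 cases and had a median width of 198 bp. New Foxp3 regions that the KIKO comparison does not list were near a gene end in 13.5% of 2199 cases.

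Over windows around transcription starts the classes gave the same order as by gene ends, and the widths given above apply here too. Chromosome 18 was not analysed here. A promoter window was overlapped by 511 of 932 shared regions (54.8%, 51.6 to 58), 285 of 1211 Bcl11b-only regions (23.5%, 21.2 to 26) and 3121 of 11614 Foxp3-only regions (26.9%, 26.1 to 27.7), against 24.8% of all regions. The median distance from a region's centre to the nearest start was 208 bp for shared, 7012 bp for Bcl11b-only and 4866 bp for Foxp3-only regions. Starts lay within 1 kb for 60%, 31.1% and 36.9% of the classes, and beyond 50 kb for 9.66%, 12.4% and 11.9%.

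**Figure D4:**
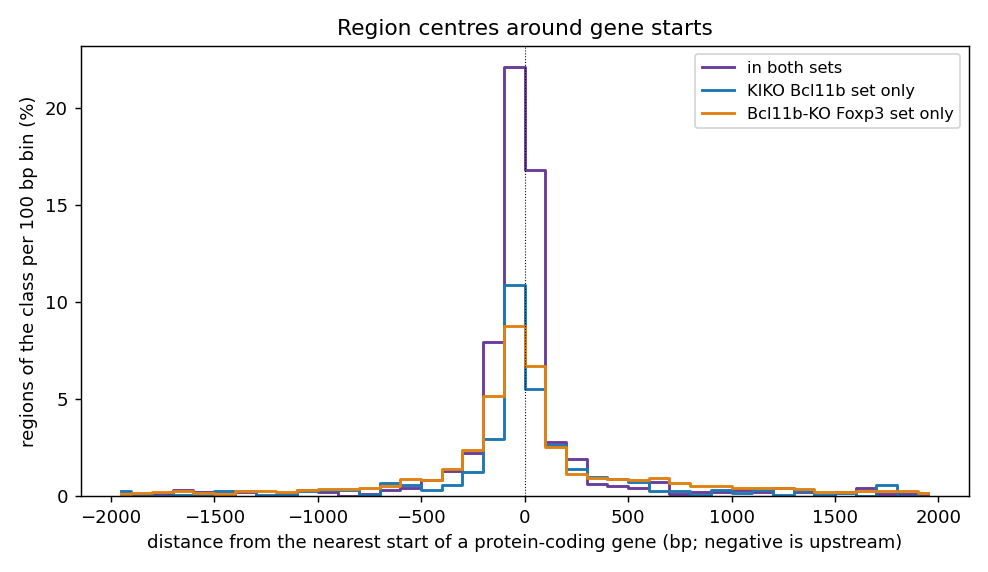
Percent of the regions of each class (y axis, per bin) by the signed distance in bp from the region's centre to the nearest start of a protein-coding gene (x axis, upstream negative), for regions outside chromosome 18. Shared regions have 60% of their centres within 1 kb of a start, and the other classes 31.1% and 36.9%.

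The promoter windows under each class were searched on both strands for 13 short sequences. A window under regions of more than 1 class was counted once, for shared regions first, then for Bcl11b-only and last for Foxp3-only regions. The Ets-type CCGGAAG stood in 39.8% (36 to 43.7) of the 613 windows under shared regions, 35.5% (30.6 to 40.7) of 344 under Bcl11b-only regions and 25.2% (23.8 to 26.6) of 3631 under Foxp3-only regions, against 11.6% (11.1 to 12) of all 21263 windows. The GC content of the windows was similar between classes, with medians of 62%, 61.7% and 61.7%, and 56.3% in all windows. The SP and KLF sequence GGGCGGG showed the reverse order, with 41.1% (37.3 to 45), 44.8% (39.6 to 50.1) and 50.2% (48.6 to 51.9), against 33.9% in all windows. CACGTG, the E-box, was found in 10.8%, 9.59% and 15.5% of windows (7.84% of all), and CCAATCAG, an NF-Y sequence, in 1.96%, 3.2% and 7.79% (4.85% of all). The forkhead-type TGTTTAC was found in 2.45%, 1.45% and 3.33% (3.01% of all), and the Runx-type TGTGGTT in 5.06%, 2.03% and 3.86% (4.71% of all). Among the others, YY1 (AAGATGGC) was found in 5.22%, 6.4% and 5.12% (3.05% of all), CRE (TGACGTCA) in 4.24%, 6.1% and 4.74% (2.23% of all), NRF1 (GCGCATGCG) in 3.92%, 4.07% and 4.16% (2.35% of all) and the AP-1 sequence TGANTCA in 3.59%, 4.65% and 5.04% (6.99% of all). TGACCA, a sequence of the related factor Bcl11a, stood in 10.8%, 5.81% and 11.7% (12.5% of all), the GATA sequence AGATAAG in 2.61%, 2.33% and 1.46% (2.64% of all) and the longer THAP11 (Ronin) element in 0.163%, 0.581% and 0.909% (0.423% of all). None of the 13 strings contains another. The sequences searched are exact short strings, so a match is a description and not a bound site. The windows were searched whole, also where a region covers only part of them.

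**Figure D5:**
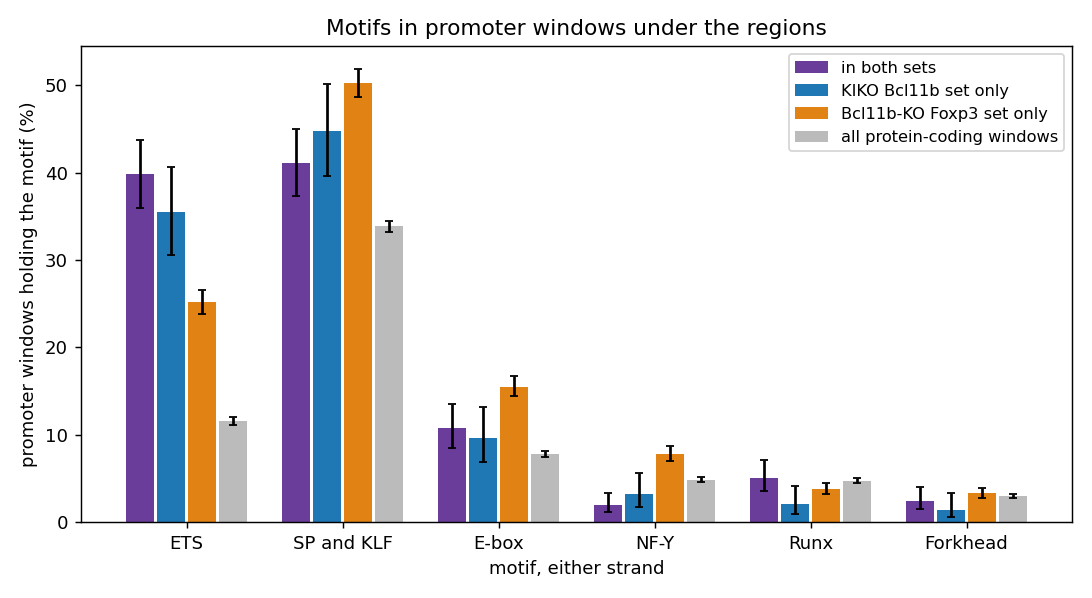
Percent of promoter windows that hold each of 6 of the short sequences on either strand (bars), by class of region and for all windows, with Wilson 95% intervals. The Ets-type sequence runs from 39.8% under shared regions to 25.2% under Foxp3-only regions and 11.6% in all windows.

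The genes of the promoters were also counted by family. Families were picked by gene symbol after the values were seen and were not tested. Of 69 mitochondrial ribosomal protein genes with a window, 16 (23.2%) had a shared region over it, among them Mrpl21, Mrpl44, Mrps2 and Mrps33. The share was 15.9% of 44 translation initiation factor genes, 14.9% of 47 DEAD and DEAH box helicase genes, 14.3% of 42 complex I genes and 14% of 43 proteasome genes, against 3.22% of all 17492 genes with a window. Bcl11b-only regions covered the windows of 13% of the mitochondrial ribosomal, 14.3% of the complex I and 10.6% of the helicase genes. They also covered 9.09% of the initiation factor and 4.65% of the proteasome genes, against 1.81% of all genes. In the same order, the shares for Foxp3-only regions were 31.9%, 35.7%, 34%, 34.1% and 41.9%, against 18.7% of all genes. These families are thus not particular to shared regions. Shared regions covered the windows of 2.42% of 331 genes named Zfp and of 0 of 1309 chemosensory receptors. Of 78 cytosolic ribosomal protein genes, 13 (16.7%) stood under Bcl11b-only regions and 6 (7.69%) under shared ones.

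Regions were also assigned to the nearest protein-coding gene within 100 kb. A KIKO Bcl11b region was assigned to 2044 of 21900 genes (9.33%), a Bcl11b-KO Foxp3 region to 7779 (35.5%), and a shared region to 917 (4.19%). Of the 2044 genes with Bcl11b, 1381 (67.6%) also had Foxp3, and in 917 of those (66.4%) the 2 factors met in the same region. The 917 genes became 1413 when every gene whose body with 10 kb on each side holds a region's centre was counted.

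Of the 11 genes described whatever their values, all 11 had a Bcl11b-KO Foxp3 region, against 35.5% of all protein-coding genes. A KIKO Bcl11b region was found at 2 of them (18.2%, 5.14 to 47.7), against 9.33% of all. Those 2 were Il10 and Bcl11b. At Il10, the suppressive cytokine, the shared region (chr1:131025849-131026132, 1.02 kb from the gene) had kept Bcl11b and new Foxp3, although the direct WT comparison of Bcl11b with Foxp3 lists it as common, so the lists disagree on Foxp3 there. At Bcl11b itself a region inside the gene (chr12:107993095-107993393) kept both factors, and another (chr12:107998719-107999043) kept Foxp3 and lost Bcl11b. The comparison with Tn cells lists the region that kept both as Tn-specific, so the lists disagree on WT Treg Bcl11b there. The Foxp3 gene had 1 region (chrX:7583933-7584227) with Foxp3 kept without Bcl11b and Bcl11b lost without Foxp3. Il2ra had 7 Foxp3-only regions, all with Foxp3 kept, and Bcl11b was lost at 2 of them. Ctla4 had 3 Foxp3-only regions, Satb1 had 5 and Ikzf2 and Ikzf4 had 2 each. Ifng and Il17a had 1 each and Gata3 had 2. Other regions of these genes lost Foxp3 without Bcl11b. They were 7 at Satb1, 4 at Ikzf2, 3 at Ctla4, 2 each at Ikzf4, Ifng and Bcl11b, and 1 each at Il2ra, Il10 and Gata3. No region at the Foxp3 gene or Il17a lost Foxp3. None of these genes besides Il10 and Bcl11b had a Bcl11b region in KIKO cells.

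The lists of T cell genes were described by counts beside the 9.33% and 4.19% of all genes. In the Runx and Ets list 7 of 14 genes had a KIKO Bcl11b region by nearest gene and 5 (Runx1, Runx3, Ets2, Fli1 and Elk4) a shared one. Gabpa is not among the 7, because the Bcl11b-only region over its promoter window was assigned to another gene. Among chemokine receptors and homing molecules 7 of 16 had Bcl11b and 5 had shared regions (Ccr9, Cxcr5, Itga4, Itgae and Itgal); Cxcr5, which directs cells to B cell follicles, had 2. Counted by gene bodies with 10 kb on each side, 3 homing genes had a shared region. In the IL-2 and STAT5 list 7 of 18 had Bcl11b and 4 had shared regions (Il2rb, Stat5a, Ccnd2 and Ccnd3), while Bcl2l1, Socs3 and Stat5b had Bcl11b-only regions. In the Treg signature 4 of 21 had Bcl11b, with shared regions at Tnfrsf9, Itgae and Il10 and a Bcl11b-only region at Nt5e. The T cell receptor list had 6 of 26, with 5 genes with shared regions that became 8 by gene bodies with 10 kb on each side. A KIKO Bcl11b region was found at 5 of 17 genes of the naive and T lineage list, 3 of 15 of the suppressive list and 2 of 20 of the T helper effector list, with a shared region at Bcl6. The NuRD list, the corepressor that Bcl11b is known to bind, had 1 of 13 (Mbd2). Housekeeping genes had 5 of 18 with Bcl11b and 3 shared (Rplp0, Tbp and Ywhaz). By gene bodies with 10 kb on each side the genes with a shared region became 5 in the housekeeping list, 2 in the T helper effector list and 1 in the NuRD list. Of 36 marker genes of other cell types, 1 (Spi1, a myeloid factor) had a KIKO Bcl11b region and 12 (33.3%, against 35.5% of all genes) had a Bcl11b-KO Foxp3 region. The lists differed in this: the 12 were 7 of 12 CD8 and NK markers (58.3%), 2 of 8 B cell markers, 2 of 8 myeloid markers and 1 of 8 neural genes. The regions carry no expression values, so a marker gene with a region is not thereby an active gene.

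Genes were ranked by their number of regions in a class. B4galt5, a galactosyltransferase, and Lfng, a Notch modifier, had 3 shared regions each, and Adnp and Akna had 2. Of the Lfng regions 1 (chr5:140596826-140597117) is listed in neither the comparison with Tn cells nor that of WT Bcl11b with Foxp3. Genes with 2 Bcl11b-only regions, first by symbol, were Ap5b1, Bcl10, Bcl2l1, Calcr and Chil3. Both Calcr regions are 252 bp wide and stand in no other comparison. Foxp3-only regions were most numerous at Arhgef3 and Rap1b, with 12 each, Septin9 with 10, and Arhgap25 and Dgkz with 9. Within 20 kb of the gene Rap1b had 6, while the other 4 genes kept their numbers. Of the Arhgef3 regions 7 were kept and 5 new.

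The listing of the classes in WT cells is given next. The classes were made from lists that include the same WT profiles, so these shares follow in part from the rule and are only described. Of the shared regions 820 (86%) are common to WT Bcl11b and WT Foxp3 in their direct comparison, and 825 (86.6%) common to Bcl11b in WT Treg and Tn cells. Of the Bcl11b-only regions 484 (39%) are common to both factors in WT and 468 (37.7%) Bcl11b-specific there; 747 (60.2%) are common with Tn. In 735 of them (59.2%) no list holds Foxp3 in any cell, in 299 (24.1%) Foxp3 was lost in Bcl11b-KO cells, and in 200 (16.1%) Foxp3 stands in the direct comparison only. Of the Foxp3-only regions 9315 (78.2%) have no Bcl11b list in any cell, 893 (7.5%) had lost Bcl11b in KIKO cells, and 1695 (14.2%) have Bcl11b in other WT comparisons only. The last class shows that a region absent from a comparison's lists is not thereby a region without the factor.

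From the Bcl11b-only regions, the nearest Bcl11b-KO Foxp3 region was at a median of 19.3 kb, and for 117 (9.43%) within 1 kb and 408 (32.9%) within 10 kb. For the 2626 lost Bcl11b regions outside the Bcl11b-KO Foxp3 set, the values were 15.5 kb, 228 (8.68%) and 1006 (38.3%), with the shorter median on the side of the lost regions. Seen from the Foxp3 side, the nearest KIKO Bcl11b region was at a median of 164 kb, and for 1016 of the 11905 regions (8.53%) within 10 kb.

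At 46 regions Bcl11b was kept without Foxp3 while Foxp3 was listed only in Bcl11b-KO cells. They lay near a gene end in 15 cases (32.6%, 20.9 to 47). In the direct WT comparison 31 of the 46 (67.4%) hold WT Foxp3 after all, 10 are Bcl11b-specific and 5 are not listed, so the label new rests on the Bcl11b-KO comparison alone for most of them. The genes, named after their values were seen, include Il10, Runx3, Cxcr5, B4galt5, Grap2, an adaptor of T cell receptor signalling, and Dll4, a Notch ligand. Among the 10 Bcl11b-specific regions are those at Soat1, Lbr, Cdc42 and Mov10.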

How the data were processed

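Per the submitters' processing notes the reads were handled on build mm10 with HOMER 4.10.1, HISAT2 2.1.0, deepTools, SAMtools 1.3, cutadapt, Trim Galore 0.4.2 and FastQC. Their order, their settings and the rule that makes a region common or specific are not stated in the labels. The authors deposited 12 lists of regions, 3 for each of 4 comparisons, which hold positions only; no counts, scores or values per sample were used, and depth is unknown. Regions were matched by identical positions, 127 repeated rows were dropped, and 4 and 17 regions listed in more than 1 class of the KIKO and Bcl11b-KO comparisons were left out. Shares have Wilson 95% intervals. The tests are Fisher's exact test, two-sided, with Benjamini-Hochberg adjustment over 4 tests. Gene ends and promoter windows come from RefSeq GRCm38.p6; all 203 list genes matched. Python 3.11.15, pandas 2.3.3 and scipy 1.17.1 were used, and the code was tested on simulated data. Named genes are the 11 always described, for each class the 5 genes with most regions, alphabetically where tied, and up to 4 genes of each list with most shared regions; an item that this rule names is not reported here. The members, gene lists and tests were chosen with earlier results of these data known. The Tn comparison was used only to describe members, and the direct WT comparison also defined 1 tested subset.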

Additional observations from a re-analysis of the deposited data

How the results depend on the processing

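The share of the KIKO Bcl11b set in the Bcl11b-KO Foxp3 set was 43.4%; it became 46.1% with centres within 500 bp, 72.1% in regions wider than 276 bp and 56.4% in regions at least as wide as the set's commonest width, an alternative chosen after seeing the data. The share of the Bcl11b-KO Foxp3 set (7.41%) became 8.02%, 16.8% and 8.85% under the same settings and 8.59% with common lists only. In regions wider than 276 bp the odds ratio of lying near a gene end became 0.754 for shared against Bcl11b-only regions and 2.93 for Bcl11b-only against Foxp3-only regions; in regions at least 276 bp wide, added after seeing the data, they were 0.748 and 4.21. Genes with a shared region rose from 917 to 1413 when every gene whose body with 10 kb on each side holds the centre was counted. The other 29 values behind main results, and 21 of 28 for single genes and lists, stayed within their limits. No paired analysis was possible because the lists are made for groups and carry no replicate; for the same reason leaving out a replicate was not run. The lists give no reads, so counting error and the effect of depth on membership cannot be given.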

Other observations

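The X chromosome held 9 of 2194 KIKO Bcl11b regions (0.41%, 0.216 to 0.778) and 235 of 12858 Bcl11b-KO Foxp3 regions (1.83%, 1.61 to 2.07), against 403 of 22081 regions in all (1.83%). By outcome the X chromosome had 9 of 2127 kept Bcl11b regions, 29 of 3519 lost ones, 217 of 10550 kept Foxp3 regions (2.06%), 124 of 4815 lost ones (2.58%) and 18 of 2308 new ones (0.78%). These shares were not tested.

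For 14 of the 67 KIKO-specific Bcl11b regions (20.9%, 12.9 to 32.1) the nearest gene was a chemosensory receptor, against 21 of 2308 new Foxp3 regions (0.91%) and 276 of all 22081 regions (1.25%), and 62 of the 67 are listed in no other comparison. This grouping was chosen after the values were seen and was not tested.

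In promoter windows under new Foxp3 regions the AP-1 sequence TGANTCA was found in 20 of 120 windows (16.7%, 11.1 to 24.3), against 4.47% of 4136 windows under kept Foxp3 regions, 3.54% of 1612 under lost ones and 6.99% of all windows. TGACCA was found in 22.5% (15.9 to 30.8) of the new, 11.3% of the kept and 8.37% of the lost windows, and 12.5% of all. The Ets-type sequence was found in 18.3%, 27.6% and 24.3% of the new, kept and lost windows, and in 38.3% and 33.3% of the windows with kept and lost Bcl11b. A window under both a kept and a lost region was counted as kept. It was counted as new only where no kept or lost Foxp3 region covered it. These sequences were picked out of the 13 after their values were seen, and were not tested.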
